A study of Homo sapiens with 16 samples.

Results

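A set of 10 genes of Notch signalling and its neural outputs were followed across 16 RNA-seq libraries. They are the receptors NOTCH1, NOTCH2 and NOTCH3, the ligands DLL1, DLL3 and JAG1, the HES and HEY family members HES1, HES6 and HEY1, and the neuronal repressor REST. They were taken by symbol and make up 10 of the 56832 gene names in the count table, and all 10 passed the filter on low counts. The libraries came from 2 lines labelled as small cell lung cancer cells, H69 and H69M. Each line stably carried a lentiviral short hairpin RNA, either against EIF6 (sheIF6) or a non-targeting control (shNTC), so the controls were transduced too. From each of these 4 combinations of line and hairpin, cytoplasmic RNA of a detergent lysate and RNA of polysomal sucrose fractions were sequenced. This gave 8 groups of 2 libraries. All cells grew in RPMI medium with serum. The labels do not say how H69M was derived, whether a transduced line is 1 clone, or whether the libraries of a group come from different cultures. The spread behind each p-value is therefore that between these libraries and may be technical.

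Notch receptors are single-pass membrane proteins that are cut when a ligand on a neighbouring cell pulls on them. The freed intracellular part enters the nucleus, joins the DNA-binding protein RBPJ and switches on genes such as HES1 and HEY1, whose products repress neural differentiation genes. REST is a zinc-finger repressor that keeps neuronal genes silent in cells that are not neurons. Neuroendocrine small cell lung cancer is known for high DLL3, a ligand that dampens Notch signalling within the cell that makes it, and for low REST.

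Library totals ran from 36005326 to 87269772 counts, and log2 CPM (the count relative to the library total, here scaled by the trimmed mean of M-values) of the 2 libraries of a group correlated at 0.951 to 0.982. Of 9 small cell lung cancer markers, 9 were over 1 CPM in every H69 library and 5 in every H69M library; their summed level was 1983 to 4258 CPM in H69 and 624 to 1578 CPM in H69M. In control cytoplasmic RNA 6 of the 9 were lower in H69M and 1 was higher (median -4.78); the higher one, the keratin gene KRT18, ran from 72.1 to 398 CPM in H69 and from 414 to 1071 CPM in H69M and so makes up much of the H69M sum. Of 6 fibroblast markers, 1 was over 1 CPM in every H69 library and 5 in every H69M library. Their sum was 115 to 511 CPM in H69 and 10164 to 38441 CPM in H69M. The collagen genes COL1A1 and COL1A2, with H69M medians of 9421 and 7820 CPM, make up most of the H69M sum. COL3A1, PDGFRB and LUM had H69M medians of 126, 77.7 and 51.2 CPM, and DCN was at 0.681 CPM or less. The markers of both kinds thus moved with the line, and their part in the line differences was not tested. Sums of 5 leukocyte markers (3.32 to 6.79 and 2.92 to 8.95 CPM) and of 4 endothelial markers (0.526 to 18.6 and 7.04 to 27.6 CPM) were low in both lines. The targeted gene, EIF6, had lower levels in the knockdown pair than in the control pair, with no overlap, in each line and fraction. Its log2 changes were -0.78 and -0.84 in cytoplasmic and polysomal RNA of H69 and -0.52 and -1.24 in H69M, none past the limit (adjusted p 1, 0.956, 0.547 and 0.204). The H69M polysomal change passed with DESeq2 (adjusted p = 0.0149) and without the 4 H69M libraries numbered 2 (-1.91, adjusted p = 0.0129).

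The H69M libraries numbered 2 stood apart from those numbered 1. They held more RNA of 34 genes that are expressed in H69 and were at 0.1% of the H69 mean or less in at least 1 H69M library. That choice asks for a low value in some H69M library, so the lowest of the medians follow from it in part. The median level of those genes, as a percentage of the H69 mean, was 0.0331% and 2.395% in the control cytoplasmic libraries 1 and 2, 0.185% and 1.87% in the knockdown cytoplasmic ones, 0.313% and 12.2% in the control polysomal ones, and 0.787% and 6.96% in the knockdown polysomal ones. In the other direction, 131 genes of H69M, chosen in the same way, had medians of 0.404% in the first H69 control cytoplasmic library and 0.0124% to 0.103% in the other 7. The line differences of DLL1, DLL3, HES6 and HEY1, which were lower in H69M, are therefore given with and without the 4 H69M libraries numbered 2. In bulk RNA, fewer cells that make a transcript and less of it in each cell cannot be told apart.

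HES1 and HES6 are the family members whose levels differed between the lines in opposite directions under every alternative tried, so the 250 bases before each transcription start are shown, from the RefSeq promoter table (GRCh38.p14). HES1 is on the plus strand at chr3:194135898-194136147 and HES6 on the minus strand at chr2:238240039-238240288, and each is read 5′ to 3′ toward its start. The RefSeq start of HES1 lies 3 bases inside the GENCODE gene, and that of HES6 lies 624 bases inside it, so the HES6 window is not upstream of the 5′ end that GENCODE gives. Capitals mark GTGGGAA, the core letters that RBPJ binds.
HES1: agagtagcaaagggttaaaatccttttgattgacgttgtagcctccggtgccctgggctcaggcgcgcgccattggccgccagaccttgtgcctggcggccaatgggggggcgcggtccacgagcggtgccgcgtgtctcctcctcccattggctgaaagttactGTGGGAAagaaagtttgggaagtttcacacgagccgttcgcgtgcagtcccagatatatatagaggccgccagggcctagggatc
HES6: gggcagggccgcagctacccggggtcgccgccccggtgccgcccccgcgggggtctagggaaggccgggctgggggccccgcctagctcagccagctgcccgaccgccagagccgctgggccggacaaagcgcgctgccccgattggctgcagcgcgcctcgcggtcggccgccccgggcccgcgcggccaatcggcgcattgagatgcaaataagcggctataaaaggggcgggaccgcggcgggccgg
The HES1 window held GTGGGAA once, 85 bases before the start, and the HES6 window did not hold it on either strand. GTGGGAA was present on either strand in 1906 of 35116 RefSeq promoter windows of this length, or 5.43%. The N-box letters CACNAG, a form bound by HES proteins, occurred 3 times before HES1 and once before NOTCH3, against 32% of all windows with at least 1. The windows of NOTCH1, NOTCH2 and JAG1 held neither. The table matched 6 of the 10 genes, and DLL1, DLL3, HEY1 and REST were not among them.

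The 2 lines differed in all 10 genes in control cytoplasmic RNA. In H69M, the receptors NOTCH1, NOTCH2 and NOTCH3, the ligand JAG1, HES1 and REST were higher than in H69, and the ligands DLL1 and DLL3 with HES6 and HEY1 were lower. In control cytoplasmic RNA all 10 genes passed an adjusted p of 0.05 by edgeR's quasi-likelihood test with Benjamini-Hochberg adjustment, 6 higher and 4 lower, where 30.2% of the 23100 genes tested passed. In control polysomal RNA 6 were higher and 2 lower, against 34% of all genes. In knockdown libraries 6 were higher and 4 lower in both fractions, against 31.5% of genes in cytoplasmic and 36.2% in polysomal RNA. The libraries of the lines did not overlap for any of the 10 genes in any of the 4 settings, a pattern that 68.2%, 64.3%, 73.7% and 69% of all genes also showed, in that order.

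**Figure D1:**
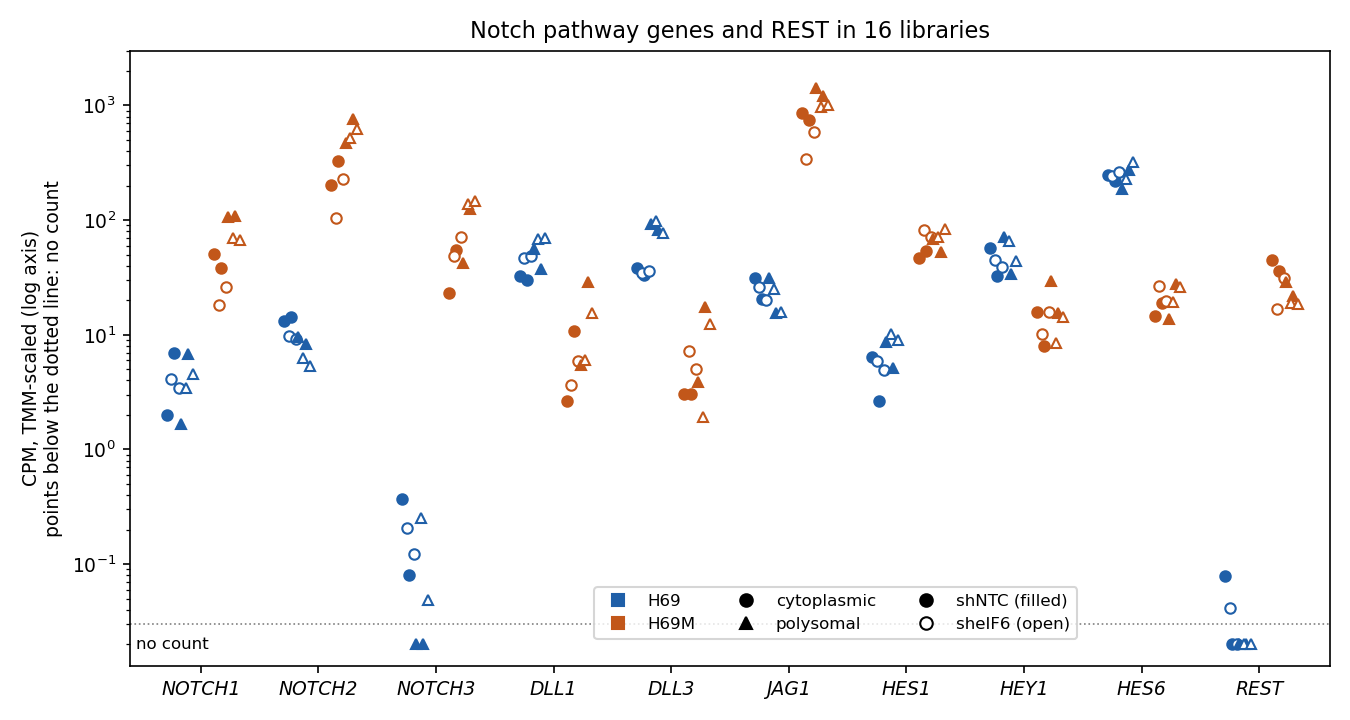
CPM of each gene in each of the 16 libraries on a log axis, with H69 in blue, H69M in orange, circles for cytoplasmic and triangles for polysomal RNA, filled for shNTC and open for sheIF6; points below the dotted line had no count. For every gene the 8 blue points lie wholly above or wholly below the 8 orange points, and REST and NOTCH3 have H69 libraries with no count.

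Levels per kilobase of exon, the scale on which genes can be set against each other, were ordered differently in the lines. In H69 the median over 8 libraries was 119.5 CPM per kb for HES6, 22.0 for DLL3, 14.7 for DLL1 and 13.7 for HEY1. It was 2.98 CPM per kb for HES1, 2.45 for JAG1, 0.557 for NOTCH2, 0.363 for NOTCH1, 0.0108 for NOTCH3 and 0 for REST. The ranges of DLL3, DLL1 and HEY1 overlapped, as did those of HES1 and JAG1, of NOTCH2 and NOTCH1, and of NOTCH3 and REST. In H69M the medians were 98.7 CPM per kb for JAG1, 33.7 for HES1, 23.7 for NOTCH2, 9.498 for HES6, 6.68 for NOTCH3, 5.67 for NOTCH1, 4.58 for HEY1, 3.18 for REST, 1.84 for DLL1 and 1.71 for DLL3. Each gene in the H69M order overlapped the next over the 8 libraries. By these medians JAG1 led in H69M and HES6 in H69, although HES1 was above JAG1 in 1 H69M knockdown cytoplasmic library (39.4 against 36.8 CPM per kb).

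Among the receptors, NOTCH2 (chr1:119911553-120069626, minus strand; GENCODE v29 on GRCh38, like all positions here) had the highest level in H69M. It stood at 202 and 328 CPM in H69M control cytoplasmic RNA against 13.2 and 14.2 CPM in H69, and at 467 and 763 CPM against 9.47 and 8.24 CPM in polysomal RNA. The log2 differences were 4.28 (SE 0.397, adjusted p = 9.4e-06) and 6.12 (SE 0.434, adjusted p = 1.3e-06), or 19.4-fold and 69.5-fold. NOTCH2 shares near-identical exons with the NOTCH2NL genes, so its counts are uncertain by what the counting did with shared reads. NOTCH1 (chr9:136494433-136545786, minus strand), the receptor best known from T-cell leukaemia, was at 51.1 and 37.9 CPM in H69M control cytoplasmic RNA against 2.01 and 6.90 CPM in H69. In polysomal RNA it was at 106.8 and 109.7 CPM against 1.66 and 6.78 CPM. The differences were 3.32 (SE 0.618, adjusted p = 0.0016) and 4.68 (SE 0.658, adjusted p = 0.00023).

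NOTCH3 (chr19:15159038-15200981, minus strand), the receptor of vascular smooth muscle and pericytes, was nearly without reads in H69, with 51 counts over 8 libraries against 30740 in H69M. In control cytoplasmic RNA it stood at 23.0 and 54.7 CPM in H69M against 0.371 and 0.08 CPM in H69, a log2 difference of 7.40 (SE 0.854, adjusted p = 9.3e-05). Both H69 control polysomal libraries had no NOTCH3 count against 42.0 and 124 CPM in H69M, which makes the level at least 2173-fold higher there (3 counts over the group as floor, counting error only). In H69M knockdown libraries NOTCH3 was at 48.8 and 70.8 CPM in cytoplasmic and 138 and 147 CPM in polysomal RNA, against 16 and 12 counts over the H69 groups. In knockdown libraries all 3 receptors were higher in H69M too. NOTCH1 had the smallest of these differences, 2.55 (SE 0.601, adjusted p = 0.0068) in cytoplasmic RNA. That call was lost without H69 knockdown cytoplasmic library 2 (2.44, adjusted p = 0.0632) and without the 4 H69M libraries numbered 2 (2.29, adjusted p = 0.0666).

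The ligands split. JAG1 (chr20:10637684-10673999, minus strand), an activating ligand of the Jagged family, had the highest median level per kb of the 10 genes over the H69M libraries. It was at 867 and 749 CPM in control cytoplasmic RNA against 31.2 and 20.3 CPM in H69, and at 1410.45 and 1202 CPM against 31.3 and 15.3 CPM in polysomal RNA. The differences were 4.97 (SE 0.433, adjusted p = 6.5e-06) and 5.81 (SE 0.45, adjusted p = 2.4e-06), or 31.4-fold and 56.0-fold. Of its exon length, 79 bases (0.85%) lie opposite another gene.

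DLL3 (chr19:39498895-39508481, plus strand), the inhibitory Delta-like ligand, ran the other way. H69 control cytoplasmic libraries held 38.5 and 33.5 CPM and H69M 3.02 and 3.06 CPM; polysomal ones held 93.3 and 82.0 CPM against 3.89 and 17.4 CPM. The differences were -3.56 (SE 0.775, adjusted p = 0.0046) and -3.04 (SE 0.749, adjusted p = 0.0088), or 11.8-fold and 8.22-fold lower in H69M. In knockdown RNA they were -2.53 (adjusted p = 0.0209) and -3.63 (adjusted p = 0.0036). Without H69M control cytoplasmic library 1 the first had an adjusted p of 0.0510, and without H69M control polysomal library 1 the second was -2.34 (adjusted p = 0.0524). Without the 4 H69M libraries numbered 2, DLL3 differed by -3.57 and -4.49 in control and by -2.29 and -5.51 in knockdown RNA. Of 25 alternatives, the 2 control calls of DLL3 each passed in 23, the knockdown cytoplasmic call in 19 and the knockdown polysomal call in 24. The knockdown cytoplasmic call was also lost without any 1 of its 4 libraries (DLL3 log2 differences -2.80 to -2.29, adjusted p 0.0732 to 0.125).

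DLL1 (chr6:170282206-170306565, minus strand), a Delta-like ligand that activates Notch on neighbouring cells, was lower in H69M by a margin that depended on the library number. H69 control libraries held 32.7 and 29.9 CPM in cytoplasmic and 55.6 and 37.2 CPM in polysomal RNA. H69M held 2.65 and 10.8 CPM in cytoplasmic and 5.50 and 28.8 CPM in polysomal RNA, so the second library was several times higher in both fractions. As a percentage of the H69 mean these were 5.46% and 22.2%, and 11.3% and 59.4%. The difference was -2.22 (SE 0.752, adjusted p = 0.0427) in cytoplasmic RNA and -1.43 (SE 0.729, adjusted p = 0.149, not past the limit) in polysomal RNA. Without the 4 H69M libraries numbered 2 the DLL1 differences were -3.56 (adjusted p = 0.00025) and -3.07 (adjusted p = 0.00039) in control and -3.69 and -3.54 in knockdown RNA. With the replicate number as a block within each line the polysomal difference was -1.81 (adjusted p = 0.0011). The cytoplasmic call passed in only 12 of 25 alternatives and was lost, for example, without H69M control cytoplasmic library 1 (-1.54, adjusted p = 0.236). In knockdown RNA DLL1 was lower by -3.31 (adjusted p = 0.0074) and -2.68 (adjusted p = 0.017), calls that passed in 23 and 20 of 25 alternatives. The cytoplasmic one was lost, among others, without H69M knockdown cytoplasmic library 1. The polysomal one was lost, among others, without knockdown polysomal library 1 of either line or library 2 of H69.

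**Figure D2:**
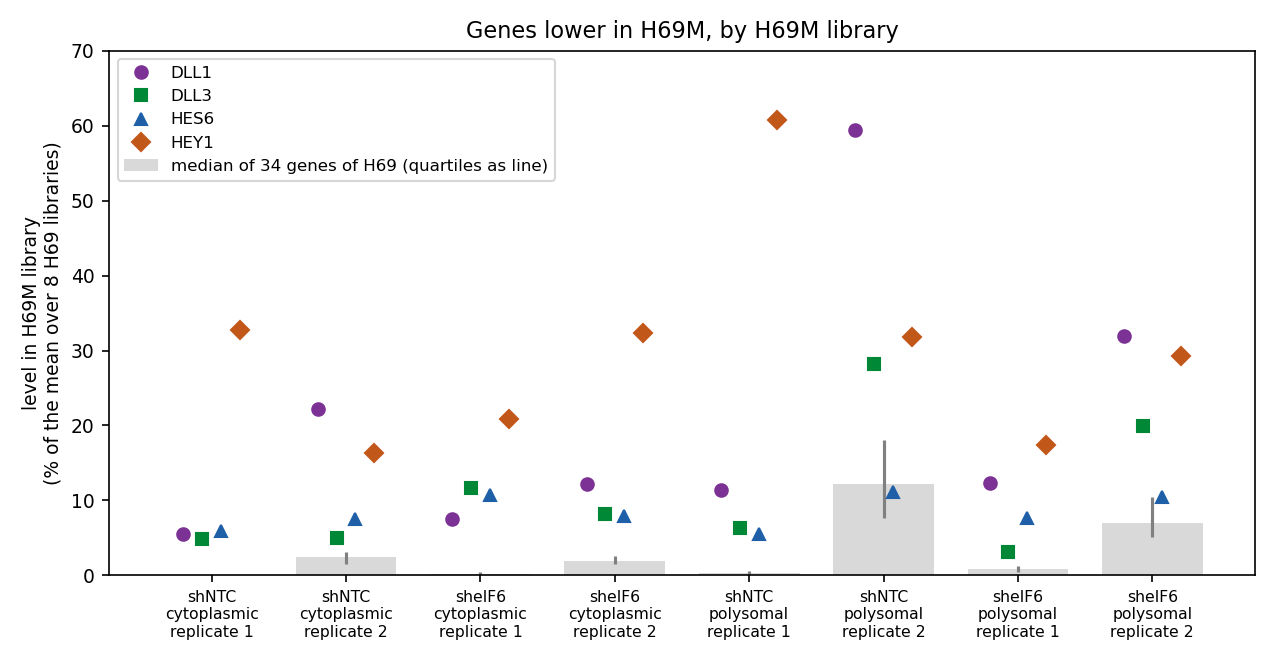
Level of DLL1, DLL3, HES6 and HEY1 in each H69M library as a percentage of the mean over the 8 H69 libraries, over grey bars for the median (line: quartiles) of 34 genes of H69. The bars are higher in the library numbered 2 of every pair, 12.2% in the control polysomal one, where DLL1 reaches 59.4% and DLL3 28.3%; HEY1 is higher in the library numbered 1 of both control pairs.

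Of the HES and HEY genes, HES1 (chr3:194136145-194138732, plus strand), the classical Notch target repressor, was higher in H69M. Control cytoplasmic RNA held 46.6 and 53.8 CPM in H69M against 6.44 and 2.64 CPM in H69, and polysomal RNA 68.6 and 53.1 CPM against 8.63 and 5.17 CPM. The differences were 3.47 (SE 0.39, adjusted p = 3.6e-05) and 3.14 (SE 0.384, adjusted p = 6.8e-05), or 11.0-fold and 8.82-fold. In knockdown RNA they were 3.82 and 3.02, and all 4 calls held under each of 25 alternatives.

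HES6 (chr2:238238267-238240662, minus strand) encodes a family member that binds HES1 and opposes it, and it was lower in H69M. H69 held 245 and 221 CPM in control cytoplasmic and 186 and 275 CPM in polysomal RNA; H69M held 14.5 and 18.7 CPM and 13.7 and 27.7 CPM. The differences were -3.81 (SE 0.367, adjusted p = 1.2e-05) and -3.47 (SE 0.361, adjusted p = 2e-05), or 14.03-fold and 11.1-fold lower. Without the 4 H69M libraries numbered 2, HES6 differed by -4.01 and -4.07 in control and by -3.23 and -3.86 in knockdown RNA. In knockdown RNA the differences were -3.44 and -3.62, and these calls too held under all 25 alternatives.

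HEY1, another RBPJ-driven repressor gene, on chromosome 8, was lower in H69M, against the direction of HES1. Control cytoplasmic libraries held 57.6 and 32.8 CPM in H69 and 15.9 and 7.91 CPM in H69M, a difference of -1.92 (SE 0.492, adjusted p = 0.0102). In polysomal RNA 71.9 and 33.6 CPM stood against 29.5 and 15.4 CPM, and the difference of -1.23 (SE 0.482, adjusted p = 0.0652) did not pass the limit; it passed with the replicate block (-1.17, adjusted p = 0.0383), with DESeq2 (-1.23, adjusted p = 0.0402) and without H69 control polysomal library 2 (-1.68, adjusted p = 0.0329). In knockdown RNA HEY1 was lower by -1.69 (adjusted p = 0.0189) and -2.28 (adjusted p = 0.0037). The control and knockdown cytoplasmic calls of HEY1 each passed in 21 of 25 alternatives and the knockdown polysomal call in 24. The control cytoplasmic call was lost without H69 control cytoplasmic library 1 (-1.46, adjusted p = 0.0857) and without H69M control cytoplasmic library 2 (-1.51, adjusted p = 0.0853). Without the 4 H69M libraries numbered 2 the control differences of HEY1 were -1.51 (adjusted p = 0.0777) and -0.84 (adjusted p = 0.259), and the knockdown ones -2.02 and -2.71. The knockdown cytoplasmic call of HEY1 was lost without either H69 library or H69M library 1 of that group (adjusted p 0.0528 to 0.16), and the polysomal one without H69M library 1 (adjusted p = 0.0517).

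REST (chr4:56907876-56966678, plus strand) was close to absent from H69. H69 gave 6 REST counts in all 8 libraries together and H69M gave 10206. H69M control libraries stood at 44.5 and 35.8 CPM in cytoplasmic and 29.1 and 21.7 CPM in polysomal RNA; H69 had 0.0781 CPM in 1 control cytoplasmic library and no count in the other or in polysomal RNA. The cytoplasmic log2 difference was 9.90 (SE 0.835, adjusted p = 1.4e-05). The ratio of the pooled counts was 1018, on 4 counts in H69. Polysomal REST was at least 664-fold higher in control and at least 502-fold higher in knockdown RNA. In knockdown cytoplasmic RNA the ratio was 1128, with a 95% counting interval of 312 to 9319 from 2 counts in H69. Of its exon length, 23 bases (0.288%) lie opposite a neighbouring gene.

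**Figure D3:**
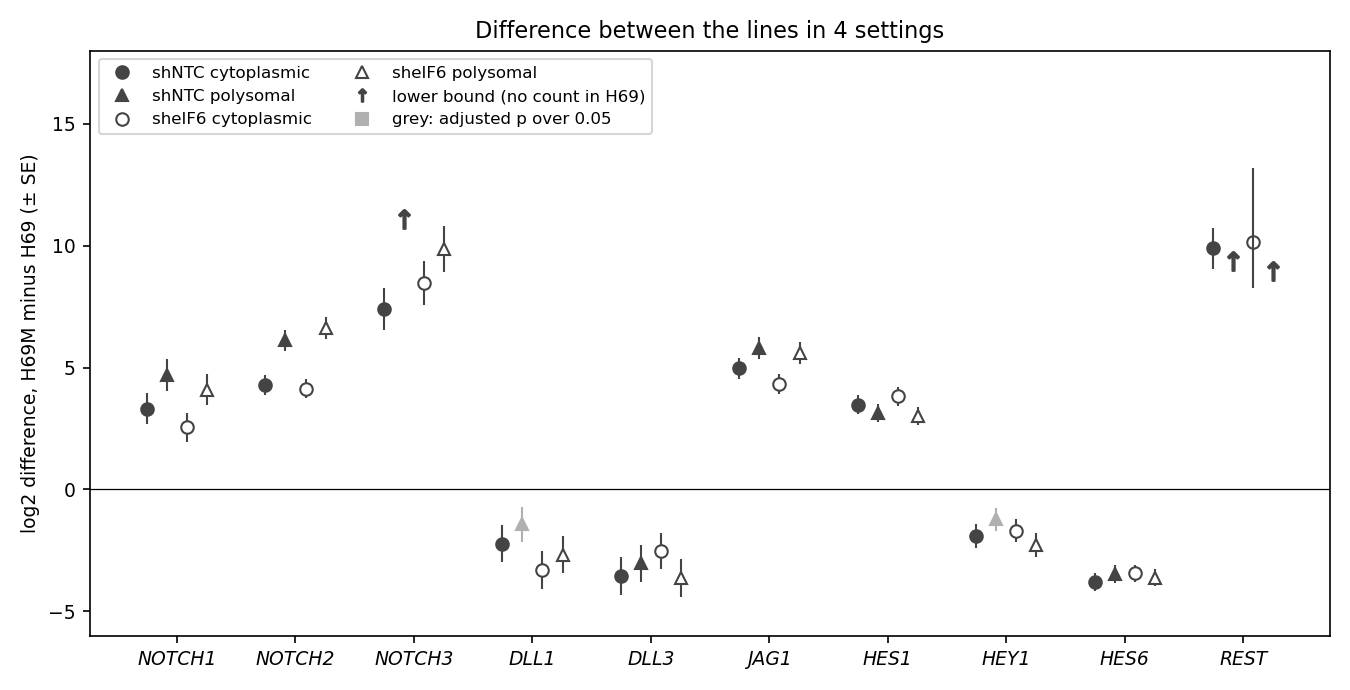
Log2 difference H69M minus H69 for each gene in 4 settings, with bars for SE; arrows are lower bounds against H69 groups with no count, the bar of REST in knockdown cytoplasmic RNA is a 95% counting interval, and grey points did not pass the limit. NOTCH1, NOTCH2, NOTCH3, JAG1, HES1 and REST lie above 0 and DLL1, DLL3, HES6 and HEY1 below 0 in all 4 settings, with DLL1 and HEY1 grey in control polysomal RNA.

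Other genes of the pathway were read from lists by role, and their counts are for control cytoplasmic RNA of H69M against H69, where 30.2% of all genes passed the limit and the median log2 difference of all genes was -0.01. Of 6 other receptors and ligands 3 were lower and 0 higher (median -1.85). These were DLK1 (-4.69, adjusted p = 0.00028), DLL4 (-3.24, adjusted p = 8.8e-05) and DLK2 (-2.52, adjusted p = 0.00036). DLL4 is an activating ligand known from blood vessels, and DLK1 and DLK2 are Delta-like proteins that lack the domain used to activate Notch. JAG2, the second Jagged ligand, stood at 96.8 CPM in H69M and 135 CPM in H69 and its libraries overlapped. DNER, a Delta-like protein of neurons, differed by 3.87 (adjusted p = 0.0518). It was past the limit in 11 of 25 alternatives, among them the fit with a replicate block (3.53, adjusted p = 0.0011). With DLL1 and DLL3, 5 of the ligands or ligand-like genes named here were therefore lower in H69M and JAG1 was the one that passed as higher in the fit reported.

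Of 7 other genes, NRARP and 6 of the HES and HEY family, 6 were tested, 3 were higher and 1 lower (median 1.03). HEYL had 2 counts in H69 and 606 in H69M, a ratio of 394 with a 95% counting interval of 108 to 3258 (adjusted p = 0.00082). HES2 was higher by 4.71 (adjusted p = 0.00058) and HES4 by 2.26 (adjusted p = 0.0017). The HES2 counts were low in H69, 72 over its 8 libraries against 2884 over the 8 of H69M. HEY2, a paralogue of HEY1, was lower by -3.63 (SE 0.351, adjusted p = 1.3e-05), at 42.1 CPM in H69 and 3.41 CPM in H69M. NRARP, a target whose product turns Notch signalling down, stood at 17.5 and 15.1 CPM and its libraries overlapped. HEY1 and HEY2 were thus lower while HES1, HES2, HES4 and HEYL were higher.

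Of 14 genes for receptor maturation and cleavage 5 were higher and 1 lower (median 0.80). FURIN, the protease that cuts the receptor on its way to the surface, differed by 2.52 (adjusted p = 1.4e-05). NCSTN, a subunit of the gamma-secretase that frees the intracellular part, differed by 1.78 (adjusted p = 0.0035). ADAM17, a surface protease that can shed the receptor ectodomain, differed by 1.63 (adjusted p = 0.0039). APH1B, another gamma-secretase subunit, was lower by -1.02 (adjusted p = 0.0154), a call lost without H69 control cytoplasmic library 2 (-0.70, adjusted p = 0.174) and without either H69M library of that group (adjusted p 0.0563 and 0.0903), and without the 4 H69M libraries numbered 2 (-0.94, adjusted p = 0.101). Of 12 genes for ligand and receptor turnover 1 was higher, MIB2 (0.83, adjusted p = 0.0372), and 1 lower, NEURL1B (-1.95, adjusted p = 0.00029), both ubiquitin ligases of Notch ligands. The MIB2 call passed in 15 of 25 alternatives and was lost without any 1 of the 4 libraries compared (adjusted p 0.0547 to 0.2004).

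Of 15 genes of the nuclear complex 2 were higher and 3 lower (median -0.27). The Groucho family corepressors, which HES and HEY proteins recruit, split: TLE4 was higher by 4.11 (adjusted p = 1.8e-06), and TLE2 (-3.57, adjusted p = 4e-05) and TLE3 (-1.70, adjusted p = 0.0016) were lower. The acetyltransferase gene KAT2B was higher by 2.93 (adjusted p = 8.7e-05) and the coactivator MAML3 lower by -1.49 (adjusted p = 0.0007). RBPJ, the DNA-binding partner of the receptors, stood at 132 and 103 CPM in H69 and 93.6 and 80.1 CPM in H69M. The libraries did not overlap, and the difference of -0.44 (SE 0.261, adjusted p = 0.233) did not pass the limit.

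Around REST, 2 splicing regulators that oppose it were both lower in H69M. SRRM4, which splices REST into a truncated form in neurons, stood at 51.8 and 23.0 CPM in H69 control cytoplasmic RNA and 0.1 and 0.105 CPM in H69M, a difference of -8.47 (SE 0.882, adjusted p = 3.3e-05). SRRM3 stood at 28.8 and 32.1 CPM against 2.77 and 3.14 CPM, a difference of -3.36 (adjusted p = 0.00021). Of 15 REST corepressor genes 1 was higher, SIN3B (0.95, adjusted p = 0.0066), and RCOR2 (-1.89, adjusted p = 0.0023) and KDM1A (-1.53, adjusted p = 0.0028) were lower (median -0.22). The SIN3B call was lost without H69 control cytoplasmic library 2 (adjusted p = 0.0520) and without H69M control cytoplasmic library 1 (0.59, adjusted p = 0.102).

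Of 32 neuronal genes known as REST-bound 31 were tested. In control cytoplasmic RNA 27 were lower in H69M and 2 higher (median -4.03), where 30.2% of all genes passed in either direction. In control polysomal RNA 24 were lower and 3 higher (median -3.33), against 34% of all genes. In knockdown RNA 23 were lower and 3 higher in either fraction, against 31.5% of all genes in cytoplasmic and 36.2% in polysomal RNA. The list shares genes such as SCG3 and CHGA with the small cell lung cancer markers above. SCG3 (-7.34, adjusted p = 0.0144) and CHGA (-6.26, adjusted p = 0.0094), which encode granins of secretory vesicles, and SNAP25 (-6.70, adjusted p = 0.0242), a vesicle fusion protein, had the largest differences. L1CAM, an adhesion molecule, was higher by 3.02 (adjusted p = 3.3e-05) and BDNF, a neurotrophin, by 2.26 (adjusted p = 0.00056). The count of 27 was 17 without H69M control cytoplasmic library 1 and 15 without the 4 H69 libraries numbered 1, and the polysomal count of 24 was 12 without the latter. In knockdown RNA the lowest counts were 11 and 12, also without those 4 libraries. The control counts were 26 and 27 without the 4 H69M libraries numbered 2. Leaving out H69M knockdown library 1 of the fraction gave 14 in either fraction, and H69 knockdown polysomal library 1 gave 14 in polysomal RNA. The calls of SCG3 and CHGA were lost without H69M control cytoplasmic library 1, those of SCG3 also without H69 control cytoplasmic library 1, and that of SNAP25 without any 1 of the 4 libraries compared. INSM1, a neuroendocrine transcription factor, differed by -6.20 (adjusted p = 0.0361), a call that passed in 14 of 25 alternatives. It was lost without either H69 library or H69M library 1 (adjusted p 0.0909 to 0.177). NEUROD1, another, differed by -4.78 (adjusted p = 0.0868), and a replicate block brought it past the limit (-6.22, adjusted p = 8.3e-05). Leaving out the 4 H69M libraries numbered 2 gave -10.42 for SCG3, -10.07 for SNAP25, -7.75 for CHGA and -9.88 for INSM1. YAP1, a transcriptional coactivator that marks non-neuroendocrine lines, was higher by 10.08 (SE 0.889, adjusted p = 1.6e-05).

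**Figure D4:**
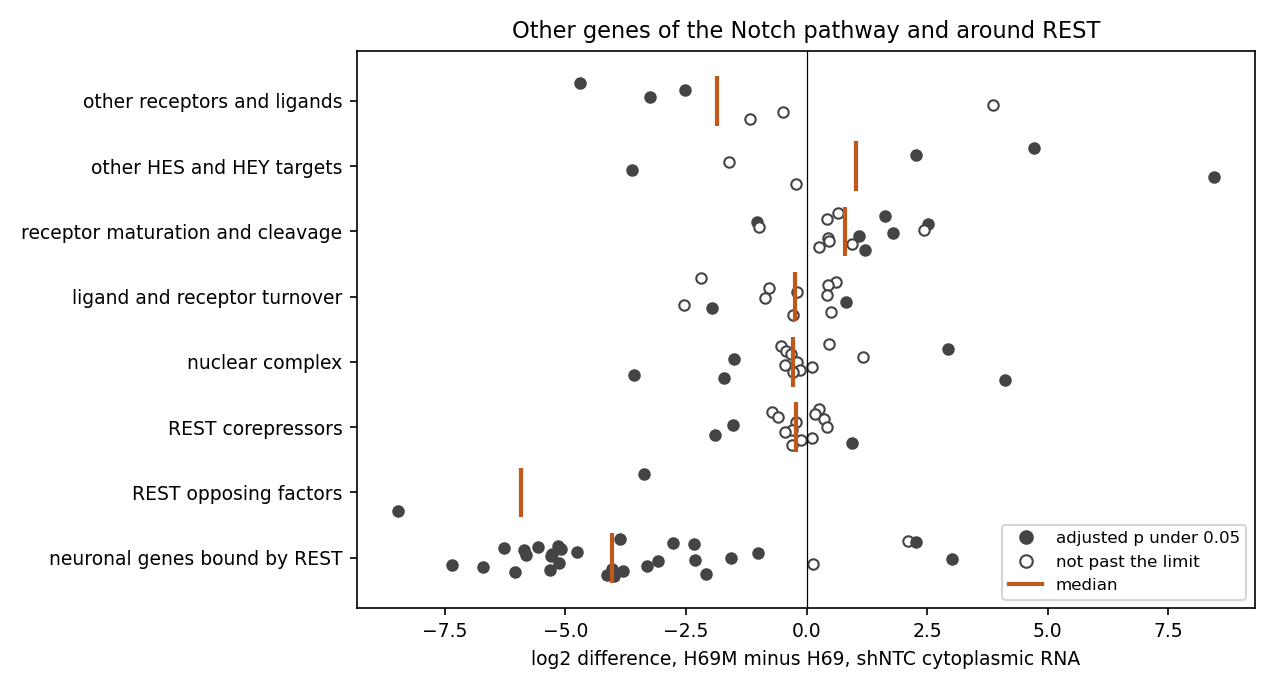
Log2 difference H69M minus H69 in control cytoplasmic RNA for each tested gene of 8 lists (points; filled past the limit, open not) with the median of each list (orange). The neuronal genes bound by REST lie mostly below 0 with a median of -4.03, while the lists for the nuclear complex and the REST corepressors are centred near 0 at -0.27 and -0.22.

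EIF6 knockdown, the comparison the series was made for, left none of the 10 genes past the limit in any setting. The share of all genes past it was 0% in H69 cytoplasmic, 0.00433% in H69 polysomal, 0.156% in H69M cytoplasmic and 0.0649% in H69M polysomal RNA. By edgeR's quasi-likelihood test at an unadjusted p under 0.05, the members counted 0, 1 (NOTCH3), 1 (JAG1) and 0 in that order, against 696, 956, 2537 and 1882 of all 23100 genes. DESeq2 and limma-voom also called 0 members in each. Both knockdown libraries lay on 1 side of both controls for 2 genes in H69 cytoplasmic RNA, 4 in H69 polysomal, 6 in H69M cytoplasmic and 6 in H69M polysomal RNA, and the share of all genes that did so was 34.3%, 22.7%, 39.8% and 32.6%.

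In H69 the receptor NOTCH2 was at 9.67 and 9.25 CPM in knockdown against 13.2 and 14.2 CPM in control cytoplasmic RNA, and at 6.29 and 5.39 against 9.47 and 8.24 CPM in polysomal RNA. The log2 changes were -0.53 (SE 0.352) and -0.60 (SE 0.357), both with adjusted p = 1. The ligand DLL1 went the other way, at 46.5 and 48.5 CPM against 32.7 and 29.9 CPM and at 68.3 and 69.7 CPM against 55.6 and 37.2 CPM, with changes of 0.60 (SE 0.716) and 0.57 (SE 0.715), again with adjusted p = 1. HES1 lay above its controls in polysomal RNA, with 10.1 and 8.99 CPM against 8.63 and 5.17 CPM (0.47, SE 0.358). NOTCH3 had 12 counts in knockdown polysomal RNA, 10 and 2 in libraries 1 and 2, and 0 in control. With 3 counts in place of that 0 the level was 3.89-fold higher, without the counting error of the 12. REST had 2 counts in knockdown and 4 in control cytoplasmic RNA and 0 in all 4 polysomal libraries. DLL3, with 34.7 and 36.3 CPM against 38.5 and 33.5 CPM in cytoplasmic RNA, had a log2 value of -0.02 (SE 0.692), and its sign turned when control library 1 was left out (0.087).

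In H69M, JAG1 had the smallest unadjusted p, 0.0486. It was at 342 and 586 CPM in knockdown against 867 and 749 CPM in control cytoplasmic RNA (-0.80, SE 0.368, adjusted p = 0.45) and at 968 and 1001 CPM against 1410.45 and 1202 CPM in polysomal RNA (-0.41, SE 0.366, adjusted p = 0.845). NOTCH1 was at 18.3 and 25.9 CPM against 51.1 and 37.9 CPM (-1.01, SE 0.567, adjusted p = 0.544), and at 70.05 and 66.7 CPM against 106.8 and 109.7 CPM (-0.66, SE 0.563, adjusted p = 0.834). These receptor and ligand levels lay below both controls in both fractions, within an error that did not pass the limit.

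REST was also below both controls in both fractions of H69M: 16.7 and 31.5 CPM against 44.5 and 35.8 CPM (-0.74, SE 0.519, adjusted p = 0.641), and 19.0 and 18.4 CPM against 29.1 and 21.7 CPM (-0.44, SE 0.518, adjusted p = 0.9). HES1 was above both controls in both fractions, with 81.2 and 71.6 CPM against 46.6 and 53.8 CPM (0.61, SE 0.353, adjusted p = 0.554) and 70.5 and 84.5 CPM against 68.6 and 53.1 CPM (0.35, SE 0.352, adjusted p = 0.862). NOTCH3 was above both controls in polysomal RNA only, 0.78 (SE 0.612, adjusted p = 0.808). DLL3 (1.01, SE 0.718) and HES6 (0.47, SE 0.33) were above both controls in cytoplasmic RNA, and HEY1 below both in polysomal RNA (-0.99, SE 0.481, adjusted p = 0.636).

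**Figure D5:**
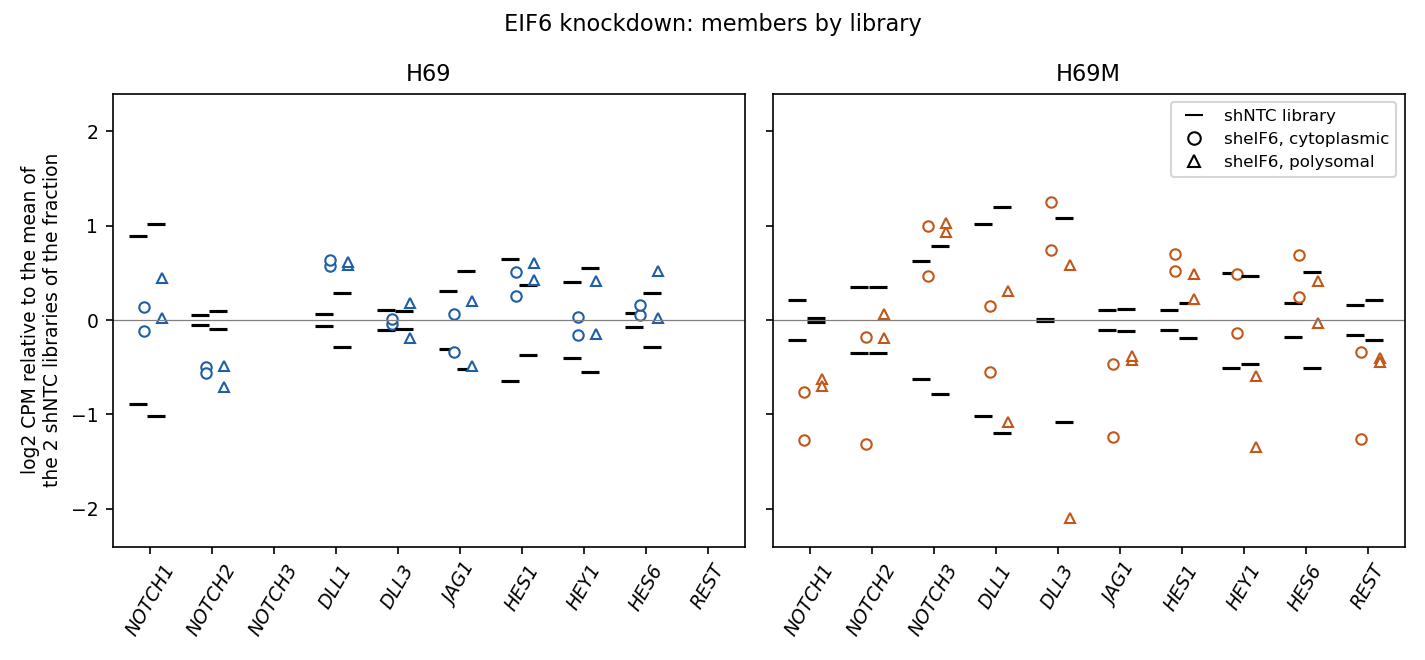
Log2 CPM of each knockdown library relative to the mean of the 2 control libraries of its fraction, with dashes for the control libraries, circles for cytoplasmic and triangles for polysomal RNA; NOTCH3 and REST are left out in H69, where a library had 10 counts or fewer. JAG1, NOTCH1 and REST lie below both dashes and HES1 above both in the 2 fractions of H69M, and none of the changes passed the limit.

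The knockdown effect itself was compared between the lines. No member differed by edgeR at the adjusted limit or at an unadjusted p under 0.05, nor by DESeq2 or limma-voom, where 0.0303% of all genes differed in cytoplasmic and 0.00433% in polysomal RNA. For NOTCH1 the difference of the changes was -0.77 (SE 0.807) in cytoplasmic and -0.58 (SE 0.808) in polysomal RNA, and for JAG1 it was -0.64 (SE 0.519) and -0.22 (SE 0.519). Both polysomal values turned positive without 1 H69 polysomal library (NOTCH1 0.10 without control library 1, JAG1 0.21 without control library 2). Of all listed pathway, corepressor and REST-bound genes, 1 passed the limit with knockdown in the fit reported, in H69M. The share of all genes that passed there was 0.156% in cytoplasmic and 0.0649% in polysomal RNA. At an unadjusted p under 0.05 by edgeR, the 31 tested REST-bound genes counted 8 and 5 in those fractions, against 2537 and 1882 of all 23100 genes. STMN2, a neuronal microtubule regulator bound by REST, was at 52.2 and 33.2 CPM in H69M knockdown against 4.10 and 5.06 CPM in control cytoplasmic RNA (3.22, SE 0.404, adjusted p = 0.0147). In polysomal RNA STMN2 was at 41.0 and 41.9 CPM against 4.62 and 10.0 CPM (2.50, SE 0.39, adjusted p = 0.0449). The cytoplasmic STMN2 call was lost without control library 1 (adjusted p = 0.095), control library 2 (adjusted p = 0.0507) or knockdown library 1 (adjusted p = 0.0923). The polysomal call passed in 13 of 26 alternatives and was lost without any 1 of the 4 libraries compared (adjusted p 0.0525 to 0.2165). In H69 the STMN2 values were -0.11 and -0.15, which turned positive without control library 1 of the fraction (0.31 and 0.25), and the difference between the lines did not pass the limit (3.33, adjusted p = 0.0946, and 2.65, adjusted p = 0.216). With the replicate block the cytoplasmic difference of STMN2 passed (3.30, adjusted p = 0.0256). INSM1 and SRRM4 did not pass in H69M either, with adjusted p of 0.577 or more.

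Polysomal against cytoplasmic RNA, compared in control libraries, shows how much of a transcript sat on polysomes relative to other transcripts. No member passed the limit in either line by edgeR's quasi-likelihood test, where 11.8% of all genes did in H69 and 4.7% in H69M. At an unadjusted p under 0.05 there were 1 member in H69 (NOTCH3) and 3 in H69M (NOTCH1, NOTCH2 and DLL3); limma-voom called 0 in both, and DESeq2 called 1 (NOTCH3) and 2 (NOTCH2 and DLL3). The fit with a replicate block called NOTCH3 in H69 and NOTCH2 and DLL1 in H69M. The groups did not overlap for 4 members in H69 and 5 in H69M, against 55.3% and 45.3% of all genes. The median member difference was -0.05 in H69, where the median of all genes was -0.14, and 1.01 in H69M, where it was 0. Scaled by library size alone, all genes called split into 843 higher and 2371 lower in H69 and 225 and 1074 in H69M, against 1531 and 1201, and 498 and 587, with the main scaling.

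NOTCH2 had opposite signs in the lines. In H69M it was at 202 and 328 CPM in cytoplasmic and 467 and 763 CPM in polysomal RNA, a difference of 1.21 (SE 0.351, adjusted p = 0.067). With the replicate block the adjusted p was 0.0061, and it was 0.0318 and 0.032 without H69M knockdown cytoplasmic library 1 or 2. In H69 it was at 13.2 and 14.2 against 9.47 and 8.24 CPM, a difference of -0.62 (SE 0.353, adjusted p = 0.281). The difference between the lines was 1.84 (SE 0.497, unadjusted p = 0.00276, adjusted p = 0.357). Across all genes 0% passed the limit in that comparison, with 2127 at an unadjusted p under 0.05, among them the members NOTCH2 and NOTCH3; DESeq2 called 1 member, NOTCH3, and limma-voom 0. NOTCH3 in H69 had 19 and 4 counts in control cytoplasmic libraries 1 and 2 and 0 in control polysomal RNA. With 3 counts in place of that 0 its polysomal level was 5.94-fold lower, without the counting error of the 23 cytoplasmic counts. NOTCH3 was called there with the replicate block (adjusted p = 0.0147). Library 1 was the H69 library with the most signal of H69M genes (0.404%), and the part of that signal in NOTCH3 was not tested.

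DLL3 had higher polysomal than cytoplasmic levels in both lines, 93.3 and 82.0 against 38.5 and 33.5 CPM in H69 (1.28, SE 0.702, adjusted p = 0.266) and 3.89 and 17.4 against 3.02 and 3.06 CPM in H69M (1.81, SE 0.731, adjusted p = 0.185). In a fit of H69 libraries alone the first had an adjusted p of 0.0031. NOTCH1 in H69M differed by 1.28 (SE 0.57, adjusted p = 0.229) and JAG1 by 0.69 (SE 0.367, adjusted p = 0.317), with both polysomal libraries above both cytoplasmic ones. DLL1 in H69M differed by 1.35 (SE 0.734, adjusted p = 0.333), and the fit with a replicate block gave 1.27 (adjusted p = 0.0344); without H69M control polysomal library 2 it was -0.28. REST was the member with less polysomal than cytoplasmic RNA in H69M, 29.1 and 21.7 against 44.5 and 35.8 CPM (-0.66, SE 0.518, adjusted p = 0.528). For DLL3 and DLL1, which were higher in H69 than in H69M, the H69 signal noted above moved with the H69M values. The H69M polysomal libraries held more of the 34 H69 genes than the cytoplasmic ones of the same number. The part of that signal in the DLL3 and DLL1 values was not tested. Without the 4 H69M libraries numbered 2, the polysomal difference in H69M was 0.37 for DLL3 (adjusted p = 0.644) and 1.22 for NOTCH2 (adjusted p = 0.0827).

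Knockdown was also tested for a change of this polysomal difference. The share of all genes past the limit was 0% in H69 and 0% in H69M, with 383 and 392 genes at an unadjusted p under 0.05. By edgeR, DESeq2 and limma-voom no member passed, and at an unadjusted p under 0.05 there were 1 in H69 (NOTCH3, 12 counts against none) and 0 in H69M. The largest shift among members with counts in every library of H69M was DLL3 at -1.60 (SE 1.01), followed by HEY1 at -1.11 (SE 0.677).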

How the data were processed

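RNA-seq of 16 libraries was analysed from 1 table of read counts per gene, deposited by the authors as whole numbers without normalization. STAR, HTSeq and GRCh38 are named per the submitters' processing notes. Versions and the strand setting are not given in the sources used here, so reads of overlapping antisense genes cannot be told apart. Every column was mapped to a sample by its label.

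From the counts, genes passing edgeR's expression filter (minimum count 10) were kept, 23100 in all, and a quasi-likelihood model with 8 group means (edgeR 4.0.16, limma 3.58.1, R 4.3.3) was fitted with trimmed-mean scaling. It gave 15 contrasts, with Benjamini-Hochberg adjustment over all genes and a limit of 0.05. The standard error was derived from the F statistic, and CPM used the same scaling. CPM per kb used the exon union of GENCODE v29. A floor of 3 counts replaced a group with no count and leaves out the counting error of the other group. The 95% intervals cover counting error only. The fit was also run on simulated independent libraries with the same spread for all genes. That run held no pairing of libraries and no H69 signal in H69M, so it cannot show how the fit behaves under them.

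The genes and lists were chosen with earlier results of these data known. Named were all 10 genes, a panel of lineage factors, the 3 genes with the most similar profile to each of the 10, and from each list up to 3 called genes per direction with the largest change, if their groups did not overlap and the higher one averaged 100 counts or more. JAG2, DNER, NRARP and KRT18 were named after their values were seen. Some named genes are not reported here. Alternatives were RLE scaling, library size alone, no filter, at least 50 counts in 2 libraries, DESeq2 1.42.0, limma-voom, a replicate block, 1 line alone, leaving out numbered libraries of a line, and leaving out each library. A group left with 1 library borrowed its spread from the remaining groups.

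The labels do not state that replicate numbers pair libraries. Deviations from group means correlated between same-numbered libraries at 0.168 to 0.28 over 6 pairs in H69 and 0.172 to 0.578 over 6 pairs in H69M, and at -0.107 to 0.0457 over 16 pairs between lines, so the numbers were taken to pair libraries within a line. The reported fit has no replicate block; the fit with a block was an alternative and is given where it changes a call.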

Additional observations from a re-analysis of the deposited data

How the results depend on the processing

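No called difference changed direction under any alternative run. The single-gene values counted here were members called or without overlap between groups, named list genes, and a few other values printed above. Other member values, none of them called, are left out, so the counts give no rate over all values. With 1 library left out, 1786 values kept their direction and side of the limit, 81 lost the call, 13 gained it and 8 reversed. Under the other alternatives 1038 kept both, 33 lost the call, 25 gained it and 3 reversed. The reversed values were all of changes that had not passed. Under knockdown in H69, without the 4 H69 libraries numbered 1, DLL3 was 0.12 in cytoplasmic RNA and STMN2 0.37 in cytoplasmic and 0.14 in polysomal RNA. With each library left out in turn these ran from -0.12 to 0.087, -0.43 to 0.31 and -0.46 to 0.25. The polysomal knockdown difference between the lines ran likewise from -1.93 to 0.10 for NOTCH1 and from -0.82 to 0.21 for JAG1, and the polysomal against cytoplasmic difference of DLL1 in H69M from -0.28 to 2.70. Of the 10 genes, 7 to 10 passed the limit between the lines under each alternative in control cytoplasmic, control polysomal and knockdown cytoplasmic RNA and 8 to 10 in knockdown polysomal RNA. The number moved by over 1.5 times in 3 comparisons, each 0 in the analysis reported. For polysomal against cytoplasmic RNA in H69 it was 1 with library size alone, 1 with DESeq2, 1 with the replicate block (NOTCH3 in each), 1 in H69 libraries alone (DLL3), and 2 without the 4 H69M libraries numbered 2 (NOTCH2 and DLL3). In H69M it was 2 with DESeq2 (NOTCH2 and DLL3), 2 with the replicate block (NOTCH2 and DLL1), and 0 to 1 with each library left out in turn. For the difference of the lines it was 1 with DESeq2 (NOTCH3). The cause was not tested. The replicate block also brought DLL1 and HEY1 past the limit between the lines in control polysomal RNA, making 10 genes in all 4 line comparisons, and changed no other call of the 10 genes.

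Over all genes, knockdown calls numbered 0, 1, 36 and 15 in H69 cytoplasmic, H69 polysomal, H69M cytoplasmic and H69M polysomal RNA. They numbered 78, 92, 458 and 336 with DESeq2, 0, 0, 109 and 44 with limma-voom, and 1, 25, 268 and 203 with the replicate block. Scaling by library size alone shifted the median line difference over all genes in knockdown cytoplasmic RNA from 0.02 to -0.19 and the calls from 3912 higher and 3374 lower to 3150 and 4155. Counts of 0 to 19 in H69 limit NOTCH3 and REST there.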

Other observations

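Over the 16 libraries, the genes with profiles closest to each of the 10 were ranked by Pearson's r of log2 CPM among 11598 genes with a mean count of at least 100. All of these libraries share the difference between the lines, so the values are a description. REST was closest to CYP1B1 (r = 0.996), a cytochrome P450, followed by TMEM200A and IFI44L (r = 0.996 each). NOTCH2 was closest to FAT4 (r = 0.994), a large cadherin, and NOTCH3 to DCBLD1 (r = 0.99), with the extracellular fibril gene FBN1 among its nearest 3 (r = 0.987). NOTCH1 had lower values, led by APBA1 (r = 0.978). JAG1 was closest to TBC1D9 (r = 0.995) and AP3B1 (r = 0.993). VCL, which encodes the focal adhesion protein vinculin, was among the nearest 3 of both NOTCH2 (r = 0.991) and JAG1 (r = 0.993). HES1 was closest to NFATC4 (r = 0.987).

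Of the genes lower in H69M, HES6 was closest to CENPV (r = 0.991), with RUNDC3A among its nearest 3 (r = 0.989). DLL1 was closest to EYA2 (r = 0.981), a transcriptional coactivator of the eyes absent family, and DLL3 to RAB3A (r = 0.977), a GTPase of synaptic vesicles. HEY1 had the lowest leading value of the 10, with CCDC71L (r = 0.963), and the calcium-binding protein gene CALB1 was next (r = 0.961).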
